A study of Mus musculus with 12 samples.

Results

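The core circadian clock genes were taken as 10 transcripts, Arntl, Clock, Npas2, Per1, Per2, Per3, Cry1, Cry2, Nr1d1 and Nr1d2, found by symbol in a table of read counts for 25239 genes. All 10 symbols had a row. The samples were bulk brain and bulk liver of aged male wild-type (WT) C57BL6/J mice, 24 months old. Mice of 1 group were controls. Heat stress mice spent 3 hours a day for 15 days in a humid chamber (60% ± 5% relative humidity) held at 40 ± 0.5 °C. There were 3 control and 3 heat stress libraries of each tissue, 12 in all, and the question was how heat stress and control differed in each tissue. The animals of both groups shared age, strain and genotype and lived in a cycle of light and dark, but the time of day at which tissue was collected was not given in the sources used here. No series of collection times is described, so a difference in clock phase and a difference in daily mean level cannot be told apart in any comparison below.

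In the circadian clock, the proteins of Arntl (BMAL1) and of Clock or its relative Npas2 pair up and switch on genes that carry E-box motifs, the Per, Cry and Nr1d genes among them. PER and CRY proteins then block the activator pair, and the REV-ERB proteins made from Nr1d1 and Nr1d2 repress Arntl, Clock, Npas2 and Cry1. In the liver of mice housed in light and dark, Arntl and Npas2 transcripts are known to run roughly opposite in the day to Nr1d1 and Per3. Feeding time, body temperature and glucocorticoids are known to set the phase of the liver clock, whereas light sets that of the suprachiasmatic nucleus of the brain.

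Depth ran from 10466198 to 15609040 assigned reads a library. Hepatocyte markers summed to between 81152 and 126751 CPM (reads scaled to the size of the library) in liver, and neuron markers to between 6101 and 8407 CPM in brain, so each tissue carried its defining markers. The brain samples were not the clock's pacemaker alone: a list of 8 suprachiasmatic and hypothalamic genes summed to between 40.0 and 144.8 CPM. The brain region taken for RNA was not given in the sources used here. Skeletal muscle markers stood at 403.8 CPM in liver control 1 and 2309.9 CPM in liver heat 2, against 1.21 to 7.26 CPM in the other liver libraries, and results are also given without those libraries. In bulk tissue, fewer cells of a type and less RNA per cell cannot be told apart.

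Promoter windows, from 250 bases before to 50 bases after the start of a gene, were read from RefSeq on GRCm38.p6 for 9 of the 10 genes (13 windows). Per2 had no window. Exact matches on both strands to the E-box CACGTG, the variant CACGTT (printed as AACGTG where it lies on the opposite strand), the ROR and REV-ERB element TAGGTCA or TGGGTCA, the D-box TTATGTAA or TTACGTAA, the cyclic AMP response element TGACGTCA and the heat shock element were counted. The 8 matches are shown since these are the short elements through which clock proteins are known to act on one another's genes. Each reads along the gene's own strand, with the motif in capitals.
Per1 E-box, chr11:69098772-69098799, plus strand: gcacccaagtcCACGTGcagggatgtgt
Cry1 E-box, chr10:85185098-85185125, minus strand: gtgccggtggtCACGTGgggtgcatgcc
Cry1 E-box variant, chr10:85185117-85185144, minus strand: cacacttcagaAACGTGaggtgccggtg
Cry2 E-box variant, chr2:92434219-92434246, minus strand: cacatggtgggAACGTGagggggcggag
Nr1d1 E-box variant, chr11:98775389-98775416, minus strand: gcacagatctcAACGTGccggctgctgg
Arntl ROR and REV-ERB element, chr7:113207530-113207558, plus strand: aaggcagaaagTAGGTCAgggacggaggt
Per3 D-box, chr4:151044852-151044881, minus strand: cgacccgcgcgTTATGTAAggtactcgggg
Per3 D-box, chr4:151044805-151044834, minus strand: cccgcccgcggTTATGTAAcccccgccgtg

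The Arntl element began 30 bases after the start, in the untranslated part of the first exon. The Per1 E-box lay 166 bases before the start of a shorter transcript, inside an intron of a longer one. The remaining matches stood before the gene, 60 and 79 bases upstream in Cry1, 166 in Cry2, 28 in Nr1d1, and 205 and 158 in Per3. Among all 32851 windows, CACGTG was in 7.15%, CACGTT in 4.68%, TAGGTCA in 2.61%, TGGGTCA in 3.98%, TTATGTAA in 0.938%, TTACGTAA in 0.119%, TGACGTCA in 1.79% and the heat shock element in 0.603%. No window of the clock genes held TGGGTCA, TTACGTAA, TGACGTCA or the heat shock element, and the windows of Clock, Npas2 and Nr1d2 held none of the motifs. A match is a description of the letters and not a measured binding site.

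In liver, the activator genes stood lower and Per1 higher in the heat stress libraries than in every control library, but no clock gene passed the test across all genes. Arntl, Clock and Npas2 were below the control range in all 3 heat stress livers, Per1 was above it in all 3, and the groups of the remaining 6 genes overlapped. With edgeR's quasi-likelihood test and Benjamini-Hochberg adjustment over 12296 genes, 0 of the 9 clock genes tested had an adjusted p under 0.05, as did 0% of all genes. At an unadjusted p under 0.05, edgeR gave 2 clock genes higher (Per1 and Nr1d1) and 2 lower (Arntl and Clock), against 2.97% and 2.87% of all genes tested. DESeq2 called 1 of them, Per1, among 31 genes higher and 35 lower over the same 12296. A single value compared between 3 and 3 libraries cannot reach a p under 0.1 in an exact two-sided permutation test, so calls rest on the fits across all genes. All heat stress livers stood above all control livers for 5.38% of the genes tested and below for 5.73%, against 1 (Per1) and 2 (Arntl and Clock) of the 9 clock genes tested.

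**Figure D1:**
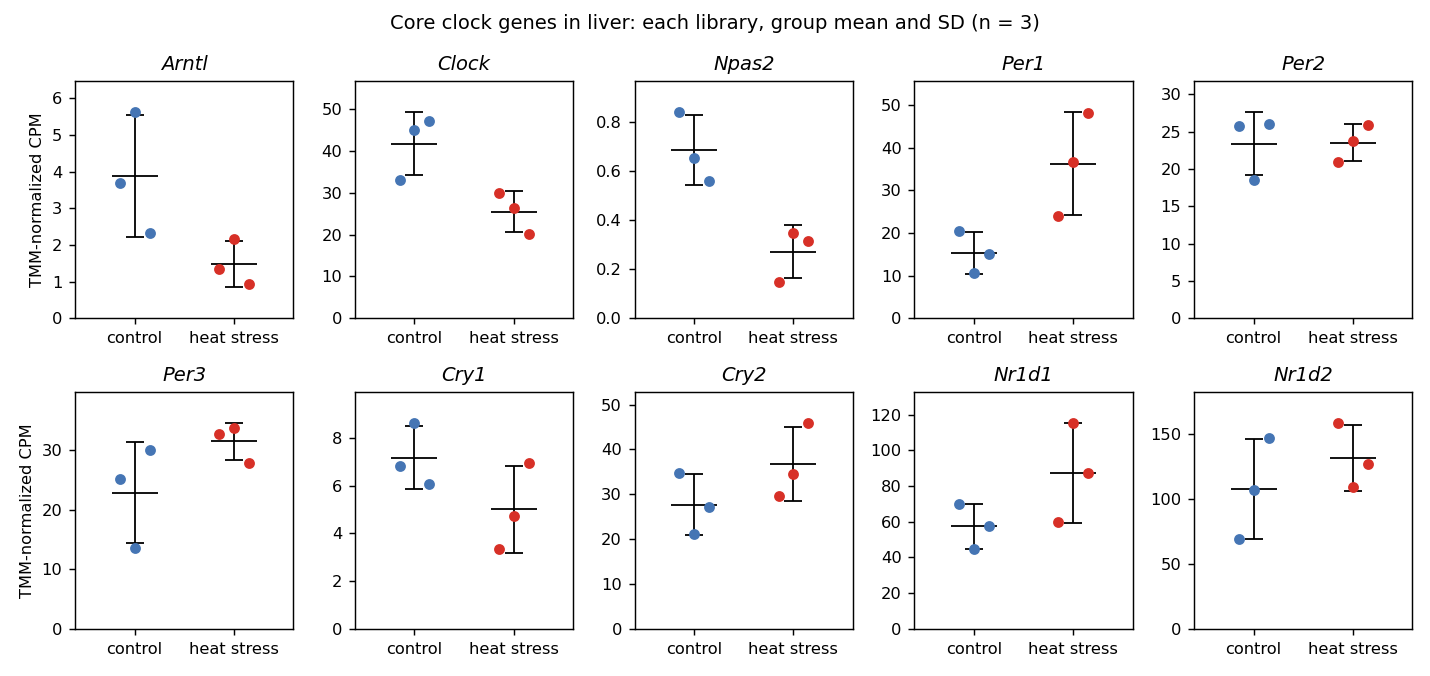
Level of each core clock gene in the 6 liver libraries, as TMM-normalized CPM on an axis from 0. Points are libraries in the order of their replicate numbers, and bars give the group mean ± SD (n = 3). Arntl, Clock and Npas2 show heat stress points wholly below control points, and Per1 wholly above.

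Arntl (chromosome 7, 113207465 to 113314126, plus strand, GRCm38) encodes BMAL1, the partner that every activator pair of the clock needs. Its level in control liver was 3.68, 5.63 and 2.33 CPM, and in heat stress liver 1.34, 2.16 and 0.946 CPM. The highest heat stress value lay just under the lowest control value. The group means were 3.88 ± 1.66 and 1.48 ± 0.62 CPM (SD, n = 3), a log2 fold change of -1.38 (SE 0.41, 95% interval -2.30 to -0.45, adjusted p = 0.604, edgeR's quasi-likelihood test). The gene was thinly counted, with 57, 69 and 25 reads in the control and 18, 31 and 12 in the heat stress libraries. Across the alternatives the adjusted p ran from 0.00872 to 1.

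Clock (chromosome 5, 76209868 to 76304792, minus strand) encodes the usual partner of BMAL1. Control livers had 33.1, 45.1 and 47.2 CPM and heat stress livers 29.9, 26.5 and 20.2 CPM, so the groups did not overlap. The log2 fold change was -0.71 (SE 0.21, 95% interval -1.18 to -0.24, adjusted p = 0.584, edgeR's quasi-likelihood test). Npas2 (chromosome 1, 39193731 to 39363236, plus strand), which encodes a relative of CLOCK that can take its place, was too low in liver for the test. Control libraries held 13, 8 and 6 of its reads and heat stress libraries 2, 5 and 4, which made 0.839, 0.652 and 0.559 CPM against 0.149, 0.348 and 0.315 CPM. The summed 11 reads over 27 gave a ratio of 0.388 with an exact 95% interval from 0.174 to 0.807, which covers counting error only. The direction was the one seen for Arntl and Clock.

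The Per and Cry genes, which encode the proteins that inhibit the activator pair, had estimates on both sides of 0. Per1 (chromosome 11, 69095217 to 69109960, plus strand) had 20.5, 10.6 and 15.0 CPM in control liver and 23.9, 36.8 and 48.2 CPM in heat stress liver. Every heat stress liver was above every control liver, the closest pair being 23.9 and 20.5 CPM. The means were 15.4 ± 4.94 and 36.3 ± 12.2 CPM, a log2 fold change of 1.24 (SE 0.30, 95% interval 0.57 to 1.90, adjusted p = 0.424, edgeR's quasi-likelihood test). The alternatives gave adjusted p from 0.0184 to 1. Per1 was the gene that DESeq2 called, at a log2 fold change of 1.22 (adjusted p = 0.0256).

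Per2 (chromosome 1, 91415982 to 91459324, minus strand) had 25.7, 18.5 and 26.0 CPM in control liver against 21.0, 23.7 and 25.9 CPM. Its groups lay on top of each other, with a log2 fold change of 0.0069 and a 95% interval from -0.42 to 0.43. Per3 (chromosome 4, 151003652 to 151044665, minus strand) had 25.2, 13.5 and 30.0 CPM against 32.8, 33.8 and 27.9 CPM. For Per3 the log2 fold change was 0.46 (95% interval -0.13 to 1.05), and without control 2, the lowest library, it came to 0.19. The 3 Per genes therefore gave different values in the same livers, and the difference between Per1 and the other two was not tested.

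Cry1 (chromosome 10, 85131700 to 85185064, minus strand) had 6.84, 8.64 and 6.06 CPM in control liver and 3.35, 4.74 and 6.94 CPM in heat stress liver. Its log2 fold change of -0.52 had a 95% interval from -1.17 to 0.13. Cry2 (chromosome 2, 92403646 to 92434043, minus strand) had 34.7, 21.2 and 27.2 CPM against 29.7, 34.6 and 46.0 CPM, a log2 fold change of 0.41 (95% interval -0.11 to 0.92). Both genes overlapped between groups, and each interval covered 0. Heat 3 weighed on both: without it Cry1 came to -0.84 and Cry2 to 0.20, while Cry1 came to -0.32 without heat 1.

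The nuclear receptor genes Nr1d1 and Nr1d2, whose proteins repress Arntl, had estimates above 0 with overlapping groups. Nr1d1 (chromosome 11, 98767932 to 98775333, minus strand) had 70.0, 44.5 and 57.8 CPM in control liver and 59.6, 115.5 and 87.1 CPM in heat stress liver. Only heat 1 fell inside the control range. The log2 fold change was 0.61 (SE 0.26, 95% interval 0.02 to 1.19, adjusted p = 0.846, edgeR's quasi-likelihood test), and without heat 2, one of the libraries with muscle transcripts, it came to 0.35. Nr1d1 overlaps Thra on the opposite strand, and whether reads were counted by strand was not stated, so reads of the pair may not be separated. Arntl and Cry2 also overlap antisense transcripts (Gm45355 and D930015M05Rik), Per3 overlaps Camta1 on its own strand, Clock overlaps Gm43658 and Ube2n-ps1 on its own strand, and Npas2, with its few liver reads, overlaps Gm20428 (antisense) and Gm3617 (same strand). Nr1d2 (chromosome 14, 18204054 to 18239127, minus strand) had 69.3, 106.8 and 147.0 CPM against 158.7, 109.1 and 127.0 CPM, and its log2 fold change of 0.29 (95% interval -0.31 to 0.89) came to 0.04 without control 1.

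**Figure D2:**
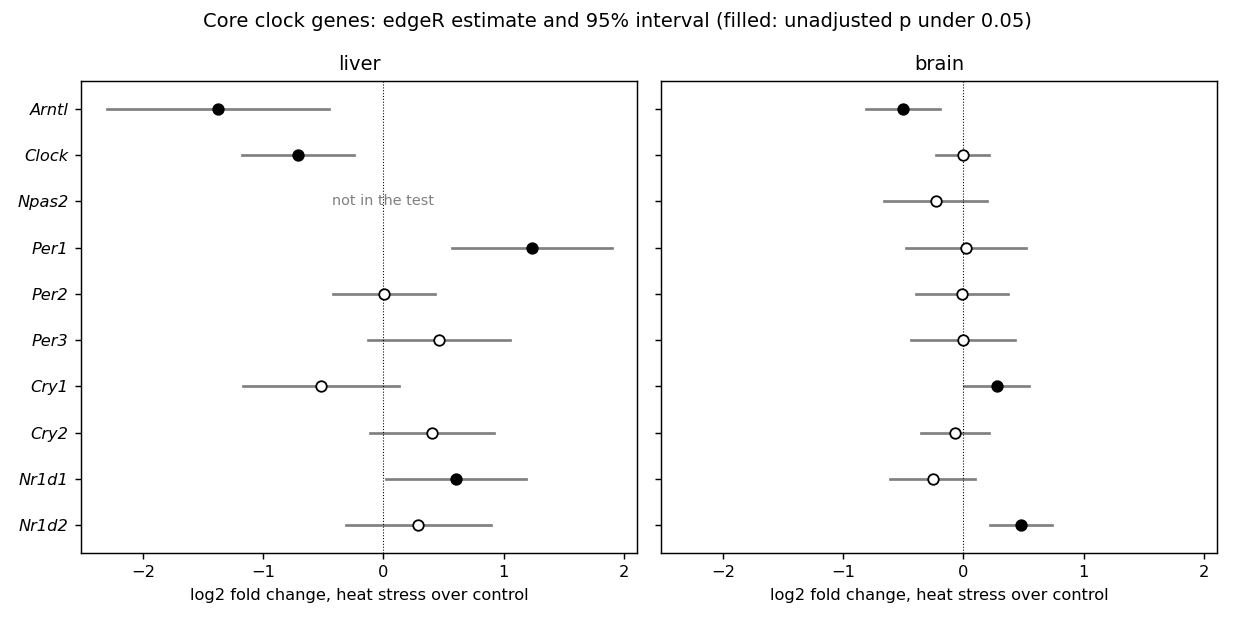
Log2 fold change of heat stress over control for each core clock gene in liver and brain, with its 95% interval from edgeR. Filled points have an unadjusted p under 0.05, and no point has an adjusted p under 0.05. Liver Npas2 was too low to be tested.

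Over the 9 clock genes tested in liver the median absolute log2 fold change was 0.52, beside 0.18 over all genes tested, and the median signed value was 0.29 beside 0.01. By role, the medians were -1.04 for the 2 activator genes tested, 0.41 for the 5 Per and Cry genes and 0.45 for the 2 Nr1d genes. Leaving out liver control 1 and heat 2, the libraries with muscle transcripts, gave log2 fold changes of -1.80 for Arntl (adjusted p = 0.0783), -0.89 for Clock (adjusted p = 0.0514) and 1.48 for Per1 (adjusted p = 0.0896) by edgeR. These estimates were as large as or larger than those with all 6 libraries, and still no clock gene was called. Among other cell type lists, T and NK cell markers summed to 2.26 to 3.51 CPM in control and 5.02 to 9.83 CPM in heat stress liver, and endothelial markers to 91.5 to 105.4 and 111.8 to 119.5 CPM. The part of these cells in the clock gene values was not tested.

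The names of 3 liver columns, control 2, heat 1 and heat 3, carry the suffix 2nd, whose meaning was not given. The slope of log2 CPM on transcript length, per SD of length, was below 0 in each of them (-0.107 to -0.042). It was above 0 in each liver library lacking the suffix (0.0256 to 0.11). Within the libraries lacking it (2 control, 1 heat stress) the log2 difference was -0.44 for Arntl, -0.58 for Clock, -0.98 for Npas2 and 1.07 for Per1. Within those bearing it (1 control, 2 heat stress) the values were -2.32, -0.88, -1.59 and 1.68. All 4 genes kept their direction on both sides, and the size for Arntl depended on the side. Of the other members, only Per2 had opposite signs, -0.13 and 0.33. With the suffix as a covariate, edgeR gave -1.39 for Arntl, -0.72 for Clock and 1.39 for Per1, and called 0 members.

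In brain, 3 clock genes separated the groups, and the rest did not. Arntl was below the control range in all 3 heat stress brains, and Cry1 and Nr1d2 were above it in all 3. EdgeR's quasi-likelihood test called 0 of the 10 members at an adjusted p under 0.05, beside 0% of the 14806 genes tested, and DESeq2 called 1, Nr1d2, among 284 genes higher and 265 lower over the same 14806. At an unadjusted p under 0.05, edgeR gave 2 members higher and 1 lower, against 10.0% higher and 10.0% lower over all genes. The groups did not overlap, heat stress above, for 12.9% of all genes and, heat stress below, for 12%. With 2 and 1 of 10, the clock genes lay near that background.

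**Figure D3:**
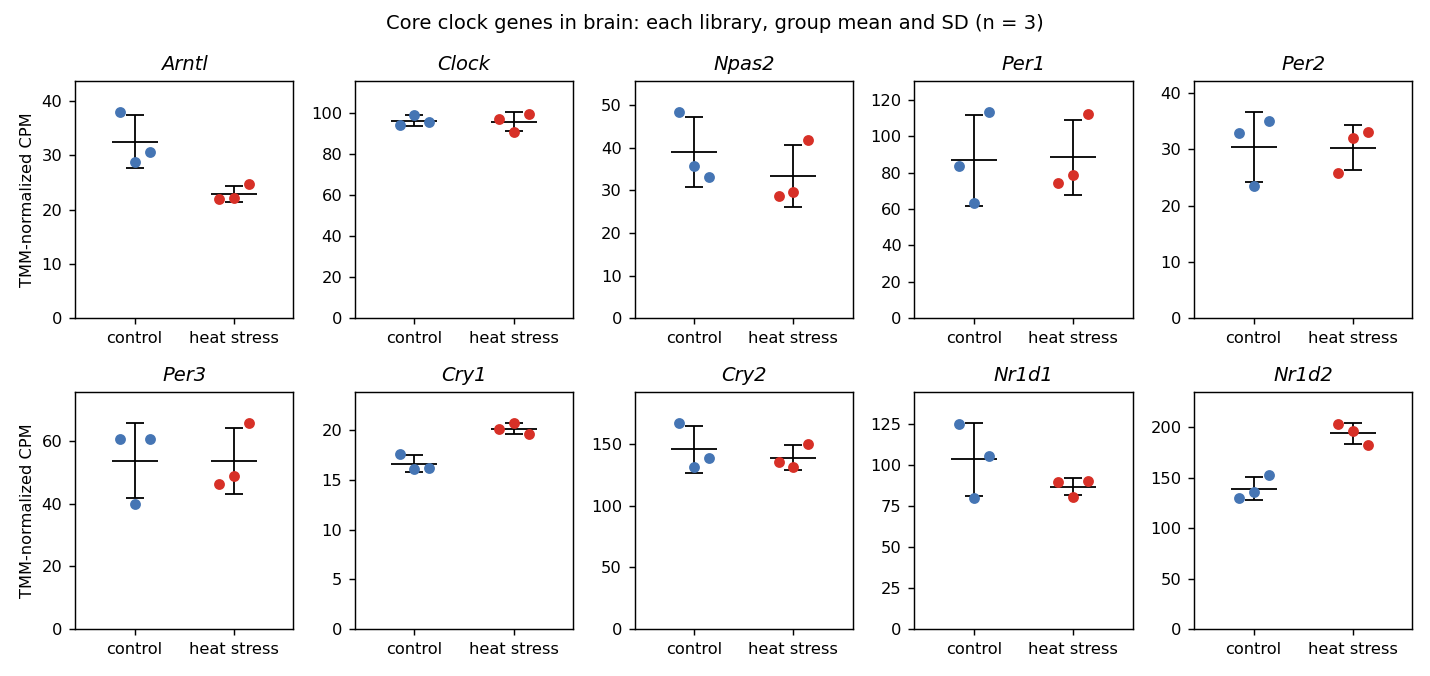
Level of each core clock gene in the 6 brain libraries, as TMM-normalized CPM on an axis from 0, with points for libraries and bars for the group mean ± SD (n = 3). Arntl lies lower, and Cry1 and Nr1d2 higher, in every heat stress library, while the other 7 genes overlap.

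Brain Arntl had 38.0, 28.7 and 30.7 CPM in control and 21.9, 22.1 and 24.6 CPM in heat stress libraries. The log2 fold change was -0.51 (SE 0.14, 95% interval -0.81 to -0.20, adjusted p = 0.17, edgeR's quasi-likelihood test), and the alternatives gave adjusted p from 0.0567 to 0.558. Arntl was thus the single clock gene whose heat stress libraries all lay below control in both tissues. Clock in brain was at 94.0, 99.1 and 95.4 against 97.1, 90.6 and 99.5 CPM, with a log2 fold change of -0.0062 and a 95% interval from -0.23 to 0.22. Npas2 had 48.4, 35.7 and 33.1 CPM against 28.6, 29.6 and 41.7 CPM, and heat 3 lay among the controls.

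Nr1d2 had 129.9, 135.8 and 152.3 CPM in control brain and 202.9, 196.8 and 182.3 CPM in heat stress brain. The lowest heat stress value stood well above the highest control value, with an SD of 11.6 and 10.6 CPM within the groups. Its log2 fold change was 0.48 (SE 0.11, 95% interval 0.22 to 0.73, adjusted p = 0.17, edgeR's quasi-likelihood test), with adjusted p from 0.0165 to 0.541 over the alternatives. Nr1d1, the other REV-ERB gene, did not share the direction, at 124.6, 80.0 and 105.1 against 89.4, 80.5 and 89.9 CPM, a log2 fold change of -0.25 (SE 0.16, adjusted p = 0.38, edgeR). That value came to -0.097 without control 1 and to -0.41 without control 2.

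Cry1 was narrowly spread in brain, with 17.6, 16.1 and 16.2 CPM in control and 20.1, 20.8 and 19.6 CPM in heat stress libraries. Its log2 fold change of 0.28 (SE 0.12, 95% interval 0.01 to 0.55) had an adjusted p of 0.238 by edgeR. Cry2 had 167.2, 131.1 and 138.5 against 135.5, 131.1 and 150.0 CPM. The Per genes varied as much within groups as between them. Per1 ran from 63.5 to 113.2 CPM in control and from 74.1 to 112.1 CPM in heat stress brain, Per2 from 23.4 to 35.0 and from 25.8 to 33.1 CPM, and Per3 from 40.0 to 60.9 and from 46.3 to 66.0 CPM. Their log2 fold changes were 0.024, -0.0093 and -0.0052, and the interval for Per1 was as wide as -0.48 to 0.52.

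Several features of the brain libraries moved with the groups. The slope of log2 CPM on transcript length was above 0 in each control brain (0.0144 to 0.134 per SD of length) and below 0 in each heat stress brain (-0.139 to -0.0195). After each library was corrected for transcript length and GC content, brain Arntl came to -0.47, Nr1d2 to 0.36, Cry1 to 0.33, Per1 to 0.23, Per2 to 0.22, Per3 to 0.20, Nr1d1 to -0.14 and Npas2 to -0.10. Striatal markers summed to 384.7 to 664.9 CPM in control and 626.5 to 1470.9 CPM in heat stress brain, choroid plexus markers to 1243 to 2472 and 257.5 to 1123 CPM, endothelial markers to 57.7 to 112.2 and 35.9 to 51.5 CPM, and T and NK cell markers to 3.80 to 5.76 and 6.54 to 19.0 CPM. Their part in the brain values was not tested. Of the 5 T and NK cell markers, 1 was high enough for the test in brain. Cd3e and Cd3d had no reads in heat 1, Cd3d and Nkg7 none in heat 3, and Cd8a and Nkg7 none in control 2. The T and NK cell sum thus does not stand for its list as a whole. The suprachiasmatic and hypothalamic list overlapped between groups (40.0 to 144.8 and 43.7 to 91.1 CPM).

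The heat effect in liver was set against that in brain in a single fit of the 4 groups, since an effect past a threshold in 1 tissue alone does not show a difference. No clock gene had an adjusted p under 0.05 for the difference by edgeR's quasi-likelihood test, where 0.00632% of the 15824 genes (1 gene) did, and DESeq2 also called 0. At an unadjusted p under 0.05, the heat effect (log2 fold change) was higher in liver than in brain for 2 members, Per1 and Nr1d1. It was lower for 3 members (Clock, Npas2 and Cry1), against 3.73% of all genes higher and 5.91% lower. Of these, Npas2 was too low for the liver test and passed the filter of this fit through its brain reads. Its liver side rests on 27 control and 11 heat stress reads, so nothing is concluded from its difference. The differences in log2 fold change were 1.18 for Per1 (SE 0.45), 0.84 for Nr1d1 (SE 0.37), -0.70 for Clock (SE 0.23), -1.13 for Npas2 (SE 0.51) and -0.81 for Cry1 (SE 0.32), each with an adjusted p of 0.516. Arntl, lower in heat stress libraries of both tissues, differed by -0.88 (SE 0.43, adjusted p = 0.52), and Per2 by -0.0030. Without 1 library, the difference ran from -1.29 to -0.58 for Arntl and from 0.56 to 1.08 for Nr1d1.

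Since Arntl and Nr1d1 transcripts are known to stand near opposite ends of the day, the difference of their log2 CPM was read in each library as a description. Control livers had -4.25, -2.98 and -4.63, and heat stress livers -5.48, -5.74 and -6.52. In control brain it was -1.71, -1.48 and -1.78, and in heat stress brain -2.03, -1.86 and -1.87. Heat stress libraries lay below control libraries in both tissues, by a wide gap in liver and by a narrow one in brain. Arntl alone already separated the groups in both tissues. In brain the estimate for Nr1d1 was also below 0 (log2 fold change -0.25), so the pair did not move in opposite directions there. Arntl less Per2 gave -2.80, -1.72 and -3.48 for the control livers against -3.97, -3.46 and -4.77 for the heated ones, where the groups overlapped by 1 pair. In brain that difference was 0.21, 0.30 and -0.19 against -0.24, -0.53 and -0.42, without overlap. Npas2 less Per3, which rests on few Npas2 reads in liver, was -4.91, -4.38 and -5.75 against -7.78, -6.60 and -6.47 in liver, and overlapped in brain (-0.33, -0.16 and -0.88 against -0.70, -0.72 and -0.66).

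**Figure D4:**
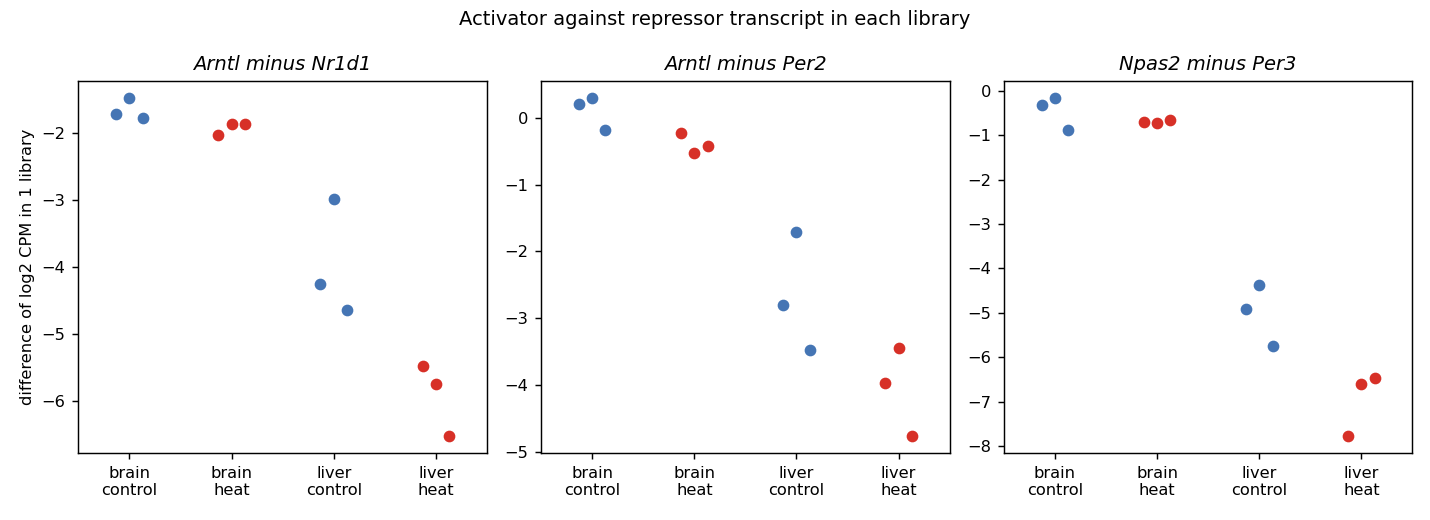
Difference of log2 CPM between an activator and a repressor transcript in each library, for Arntl and Nr1d1, Arntl and Per2, and Npas2 and Per3. Points are the 3 libraries of each group, and the vertical scale differs between panels. For Arntl and Nr1d1 the heat stress points lie below the control points in each tissue.

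The spread between libraries of a group was itself uneven. In control liver, control 2 had the highest Arntl (5.63 CPM) and the lowest Per1, Per2, Per3, Cry2 and Nr1d1 of the 3. Among heat stress livers, heat 3 had the lowest Arntl and Clock and the highest Per1, Per2 and Cry2. Both libraries carry the suffix 2nd, control 2 as the only control liver to do so. A difference between animals therefore cannot be told from what the suffix marks. Over the 6 livers Clock and Per1 had a Pearson correlation of -0.96, Arntl and Per1 of -0.81, Arntl and Clock of 0.75, Per1 and Cry2 of 0.93 and Per1 and Nr1d1 of 0.87. In liver, 20 of the 36 pairs of tested members were negative. Over the 6 brains 16 of 45 pairs were negative, Arntl and Nr1d2 at -0.93 and Arntl and Nr1d1 at 0.80, the last having the opposite sign in liver (-0.51). These values hold the group difference within them, rest on 6 libraries and are given as descriptions.

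By the same measure the transcripts most like liver Arntl were G0s2 (0.991), Ncoa5 (0.990) and Lins1 (0.987), and those most like liver Nr1d1 were G6pc3 (0.991), Sorbs3 (0.990) and Loxl1 (0.988). In brain Arntl was most like Bag6 (0.999), Cog1 (0.999) and Ppp1r10 (0.998), and Nr1d1 most like Tcp11l2 (0.996), Prickle1 (0.995) and CK137956 (0.991). They are the highest of 12295 genes in liver and 14805 in brain, and with 6 libraries such values are reached by genes of many kinds. Clock ranked 641 from the top for likeness to Arntl in liver, and Npas2 2465 in brain.

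Per kilobase of merged exons, levels could be ordered among the genes. In control liver Nr1d2 (19.9 CPM per kilobase) and Nr1d1 (18.7) led with overlapping ranges. Cry2 (4.39), Per2 (4.0), Clock (3.04), Per1 (2.73), Per3 (2.38) and Cry1 (2.15) followed, each overlapping its neighbour, and then Arntl (0.516) and Npas2 (0.143), each apart from the gene above it. In heat stress liver the order opened with Nr1d1 (28.4) and Nr1d2 (24.3), whose ranges overlapped, and Per1 (6.45), and Clock stood at 1.86, Arntl at 0.197 and Npas2 at 0.0566. In control brain the order ran from Nr1d1 (33.6), Nr1d2 (25.8), Cry2 (23.0) and Per1 (15.4) through Npas2 (8.15), Clock (7.01), Per3 (5.61), Per2 (5.19) and Cry1 (4.99) to Arntl (4.31). Ranges overlapped from Nr1d1 to Nr1d2 and from Nr1d2 to Cry2, between Npas2 and Clock, and at each step from Per3 to Arntl, so those neighbours were not told apart. In heat stress brain Nr1d2 (35.9) stood above Nr1d1 (28.1), and Arntl was again last (3.04). With the longest transcript as length, an alternative added after seeing the data, the Nr1d genes still led and Arntl and Npas2 still closed the order in liver. In brain Cry2 then stood between the Nr1d genes, at 36.6 CPM per kilobase in control (Nr1d1 37.9, Nr1d2 29.9) and 34.9 in heat stress libraries (Nr1d2 41.6, Nr1d1 31.8), and Arntl was no longer last. Arntl stood at 8.12 CPM per kilobase in control brain, above Cry1 (5.50) and Per2 (5.22), and at 5.73 in heat stress brain, above Per2 (5.19). With this length, ranges overlapped between Cry2 and Nr1d1 in both brain groups, and between Arntl and Per2 in heat stress brain. Those neighbours were not told apart, and the places of Cry2 and Arntl in brain depend on the gene model.

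Between the tissues of control mice, 6 of the 10 clock genes differed at an adjusted p under 0.05 by edgeR's quasi-likelihood test, where 80.4% of all genes did. Npas2 was lower in liver by a log2 fold change of -4.68 (SE 0.29, adjusted p = 3.54e-09), Arntl by -1.95 (SE 0.29, adjusted p = 2.5e-05), Per1 by -1.37 and Cry2 by -1.27. Per2 and Nr1d2 were higher in liver, by 0.73 and 0.72, but scaling by library totals, which moves the median of all genes from -0.24 to -1.33, turned both to -0.37 and -0.35 with no call (adjusted p = 0.101 and 0.173). Under that scaling 3137 of the 15824 genes were called higher and 10288 lower in liver, and 8 members were called, all lower: Npas2, Arntl, Per1 and Cry2 as before, and also Clock (-1.18), Per3 (-1.22), Cry1 (-1.19) and Nr1d1 (-0.83). Which other members differ between tissues thus depends on the scaling. Npas2 thus ranked last of the members in liver and in the middle in brain. Npas2 passed the filter of this fit through its brain reads, and its low count in liver limited what could be measured of it there.

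The other genes of the clock pathway were taken as a list of 30, which held further activators and repressors, the PAR bZIP factors that bind D-boxes, and the kinases and ubiquitin ligases that set the stability of clock proteins. In liver 29 were tested and edgeR called 0 at an adjusted p under 0.05. At an unadjusted p under 0.05, 7 were higher, among them Bhlhe40, Bhlhe41, Ciart, Dbp, Tef and Usp2, and 0 lower, beside the 2.97% and 2.87% of all genes. The median log2 fold change of the list was 0.04. In brain all 30 were tested, 0 were called, 4 were higher and 3 lower at that p, near the 10.0% of all brain genes in each direction, and the median was -0.04. At that p, the heat effect was higher in liver than in brain for 3 and lower for 0, beside 3.73% and 5.91% of all genes. None was called for this difference.

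Bhlhe41, whose protein DEC2 represses E-box genes, had the smallest p of the list in liver. It stood at 3.23, 2.53 and 5.22 CPM in control and 13.3, 17.0 and 15.5 CPM in heat stress liver, a log2 fold change of 2.07 (SE 0.27, adjusted p = 0.0678, edgeR). The groups were far apart relative to the SD of 1.40 and 1.85 CPM. Dbp, a PAR bZIP factor and a direct output of the activator pair, had 98.4, 45.1 and 72.2 CPM against 114.8, 157.8 and 174.7 CPM (log2 fold change 1.05, SE 0.28, adjusted p = 0.465, edgeR). Usp2, a deubiquitinase that acts on clock proteins, had 25.3, 7.58 and 14.1 against 34.8, 35.7 and 58.3 CPM (1.45, SE 0.38). Ciart, which encodes the repressor CHRONO, had 8.46, 2.61 and 3.73 against 13.9, 8.85 and 16.8 CPM (1.39, SE 0.41). In control liver all 4 of these genes were lowest in control 2, the library with the highest Arntl and the only control liver with the suffix 2nd.

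In brain, Dbp had 74.0, 67.3 and 68.0 CPM in control and 97.4, 103.7 and 107.8 CPM in heat stress libraries, a log2 fold change of 0.56 (SE 0.10, adjusted p = 0.17, edgeR). Of the list of 30, heat stress libraries lay wholly above control for 5 genes and wholly below for 3 in brain, near the 12.9% and 12% of all genes there, and for 7 and 1 in liver, beside 5.38% and 5.73%. Huwe1, a ubiquitin ligase that acts on REV-ERB alpha, had a log2 fold change of -0.51 (SE 0.12), with 390.1, 346.0 and 348.6 CPM in control and 254.2, 238.6 and 267.5 CPM in heat stress brain. Nfil3, a repressor at D-boxes, had -0.45 (SE 0.18). None of these was called by edgeR at an adjusted p under 0.05.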

How the data were processed

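Heat stress was compared with control in brain and in liver, with 3 libraries a group, 12 in all. The study describes 3 animals a group and took both tissues, so brain and liver libraries of a group may come from the same mice. The main fits across tissues treat all 12 as independent. The replicate block adds a term for each replicate number, shared by control and heat stress libraries, so it does not model pairing by mouse. The table the authors deposited holds raw read counts for 25239 gene symbols. Their processing notes name FastQC 0.11.9, Trimmomatic 0.39, HISAT2 2.2.1, featureCounts (Subread 2.0.1), DESeq2 1.22.2 and the build mm10, while the study's methods also describe another aligner and counter. Libraries were stranded messenger RNA. Use of strand in counting and the annotation release were not given in the sources used here. Further tables the authors deposited hold their own log2 fold changes and p-values from DESeq2. These were not used.

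The counts were analysed in R 4.3.3 with edgeR 4.0.16, by its robust quasi-likelihood test on TMM-scaled libraries, a filterByExpr minimum count of 10 and total of 15, and Benjamini-Hochberg adjustment over all genes tested, which left 12296 genes in liver, 14806 in brain and 15824 in a fit of the 4 groups. A gene was called at an adjusted p under 0.05. Depth per library bounds what a count of a low gene such as liver Npas2 can show. Levels are TMM-normalized CPM within a tissue, SE is the size of the log2 fold change divided by the root of the F statistic, and correlations are of log2 CPM (prior count 2). The fit was tested on simulated data with 200 genes changed 4-fold, of which 191 in liver, 195 in brain, 157 for the difference between tissues and 183 between tissues were recovered. Unchanged genes called were 6, 6, 3 and 8 in the same order. A 4-fold change is larger than any heat effect estimated here for a core clock gene. The recovery therefore does not tell how often effects of their size would be called. The genes and lists were chosen with earlier results of these data known. The text names all 10 members, the 4 other clock genes with the smallest p in each tissue, and the 3 genes most correlated with Arntl and with Nr1d1. Bhlhe40 and Tef were named after their values were seen. Marker lists other than those printed (astrocyte, oligodendrocyte, microglia and the like) and some clock pathway genes are not reported here. GENCODE M21 (GRCm38, the same build as mm10) gave positions, exon lengths and GC content, and RefSeq (GRCm38.p6) the promoter windows.

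Alternatives were other normalizations, DESeq2 1.42.0, a joint fit of the 12 libraries, leaving out the filter or raising it, a block for the replicate number, the suffix of liver columns as a covariate, a length and GC correction (chosen after seeing the data), libraries with muscle transcripts left out, and each library left out in turn. Replicate numbers are shared by the groups. Deviations of same-numbered control brain and control liver correlated at 0.26, 0.231 and 0.106, so the numbers were taken to pair those, but not heat stress brain with heat stress liver (0.0621, -0.12 and -0.0127), and not control with heat stress libraries (-0.757, -0.654 and 0.165 in liver, -0.342, 0.277 and -0.241 in brain). No 2 libraries agreed within sampling noise.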

Additional observations from a re-analysis of the deposited data

How the results depend on the processing

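Every alternative that gave a value left Arntl and Clock lower and Per1 higher in heat stress liver, and Arntl lower and Cry1 and Nr1d2 higher in heat stress brain. Without 1 library, the log2 fold change ran from -1.75 to -1.02 for liver Arntl, -0.86 to -0.58 for Clock and 0.96 to 1.49 for Per1, and from -0.59 to -0.38 for brain Arntl and 0.43 to 0.55 for Nr1d2.

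Calls depended on the tool. DESeq2 called 1 clock gene in liver and 1 in brain, and 3 in liver when all 12 libraries were fitted (Arntl, Clock and Per1, among 73 genes higher and 92 lower of 15824), where edgeR called 0. In brain that joint DESeq2 fit called 0 (2 genes higher and 7 lower over all), and the adjusted p of Nr1d2 went from 0.0165 to 0.436. Over all genes, edgeR called 0 higher and 0 lower in liver against 31 and 35 by DESeq2, 9 and 16 without control 1, and 46 and 35 without both libraries with muscle transcripts. In brain the counts were 0 and 0 by edgeR against 284 and 265 by DESeq2, and for the difference between tissues 0 and 1 against 28 and 15. The cause was not tested.

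At an unadjusted p under 0.05, the 2 liver members higher became 1 with library totals, a stricter filter or the replicate block (1 to 3 without 1 library), and 3 with the length and GC correction, the suffix as a covariate, or without both libraries with muscle transcripts. The 2 lower became 1 with a stricter filter, 3 with the length and GC correction and 4 with all 12 libraries by edgeR or DESeq2 (2 to 3 without 1 library). The fits of all 12 libraries also tested Npas2, which the filter on liver alone had left out. In brain the 2 higher became 1 with DESeq2, no filter, the replicate block or all 12 libraries, and 0 with DESeq2 on all 12 (1 to 2 without 1 library), and the 1 lower became 0 with all 12 libraries (1 to 2). For the difference between tissues the 2 higher and 3 lower became 1 and 2 with the replicate block (0 to 3 and 1 to 4 without 1 library). At an adjusted p under 0.05 the block changed no count of members, 0 in liver, 0 in brain, 0 for the difference and 6 between tissues. Since the block also ties control to heat stress libraries, these counts do not show what pairing by mouse would give.

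Values near 0 changed sign. Liver Per2 came to -0.012 with RLE factors, -0.0010 with upper-quartile factors, -0.026 with library totals, -0.012 with DESeq2, -0.0079 with no filter, -0.0072 with a stricter filter, -0.021 with all 12 libraries and -0.034 with the length and GC correction (-0.14 to 0.087 without 1 library). For the difference between tissues Per2 came to 0.030 with RLE factors and with DESeq2, 0.056 with no filter, 0.00093 with a stricter filter and 0.11 without both libraries with muscle transcripts (-0.17 to 0.21), and Nr1d2 ran from -0.38 to 0.080. In brain, upper-quartile factors gave 0.0048 for Clock, 0.0030 for Per2 and 0.0047 for Per3, the replicate block 0.0021 for Per2 and 0.0041 for Per3, and the length and GC correction 0.098 for Cry2, 0.22 for Per2 and 0.20 for Per3. Without 1 library, brain Clock ran from -0.036 to 0.032, Cry2 from -0.14 to 0.043, Per1 from -0.18 to 0.26, Per2 from -0.17 to 0.099 and Per3 from -0.18 to 0.091. Between tissues, library totals gave -0.83 for Nr1d1, -0.35 for Nr1d2 and -0.37 for Per2, and without 1 library Cry1 ran from -0.22 to 0.015 and Per3 from -0.32 to 0.16. At these depths, each of the 9 clock genes tested in both tissues had a larger SE in liver than in brain.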
